A study of Mus musculus with 2 samples.

Results

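The genes described here are 40 genes of mitosis and the spindle, chosen by name for their known roles: cyclins and mitotic kinases, the spindle checkpoint, the kinetochore, kinesins, and the machinery of cytokinesis. They were read from 2 Affymetrix mouse expression arrays, on which a probe set is a group of short probes for one transcript. Bone marrow from C57BL/6 mice was transfected fresh with an siRNA, and the cells then grew for 4 days in GM-CSF plus IL-6, a mix that yields myeloid-derived suppressor cells (MDSCs), immature myeloid cells able to hold T cell responses down. The control group received control siRNA. The other group received silncMDSC, which targets lncMDSC, a long non-coding RNA known in the study as lnc-C/EBPβ. Each group was 1 array, so no value below has a replicate error and no test could be run. Age, sex and the number of mice are not given in the sources used here. How far lncMDSC itself was lowered was not analysed here. Of the 40 genes, 39 had a probe set annotated to them alone, out of 18193 such genes on the arrays. The cyclin Ccnb1 is not named in the annotation used here and has no value.

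Mitosis is run by Cdk1 bound to cyclins A and B. It is opened by Cdc25 phosphatases and closed when the anaphase-promoting complex (APC/C) marks cyclin B for destruction. Between these events the spindle, built from microtubules, kinesin motors and Aurora and Polo kinases, attaches to chromosomes at kinetochores, and the checkpoint holds the APC/C back until every chromosome is attached. The transcripts of these proteins are made mainly in late S phase and G2 and are low in cells that have left the cycle. In bone marrow, granulocyte and monocyte precursors divide, whereas mature neutrophils do not, so these transcripts mark the dividing part of a mixed culture. In bulk RNA, fewer dividing cells and less RNA per dividing cell cannot be told apart.

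The mitosis and spindle genes were close to level between the cultures, with a small excess above control. Differences are log2(intensity + 1) in silncMDSC minus control. All 39 genes reached the floor, which was the median intensity of all probe sets on both arrays, 78.4. None was at least 1.5-fold lower, beside 1.42% of the 11920 genes that reached the floor, and 0 were at least 1.5-fold higher, beside 0.948% of all. A share of either size comes to less than 1 gene in 39. On direction, 31 genes were above 0 and 8 were below, whereas 50.7% of all genes were below 0. The median difference was 0.06, against -0.002 for all genes, and the extremes were 0.40 for Cdc25b and -0.27 for Plk4. Of the 39 genes, 24 lay within 0.1 of 0, as did 42.9% of all genes, and 32 lay within 0.18, the robust SD (scaled median absolute deviation) of all genes, as did 66.3% of all genes. Removing a loess trend on level, or a further quantile normalization, left 6 genes below 0 instead of 8, with medians of 0.08 and 0.09, whereas averaging the probe sets within each gene left 10 below 0.

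**Figure D1:**
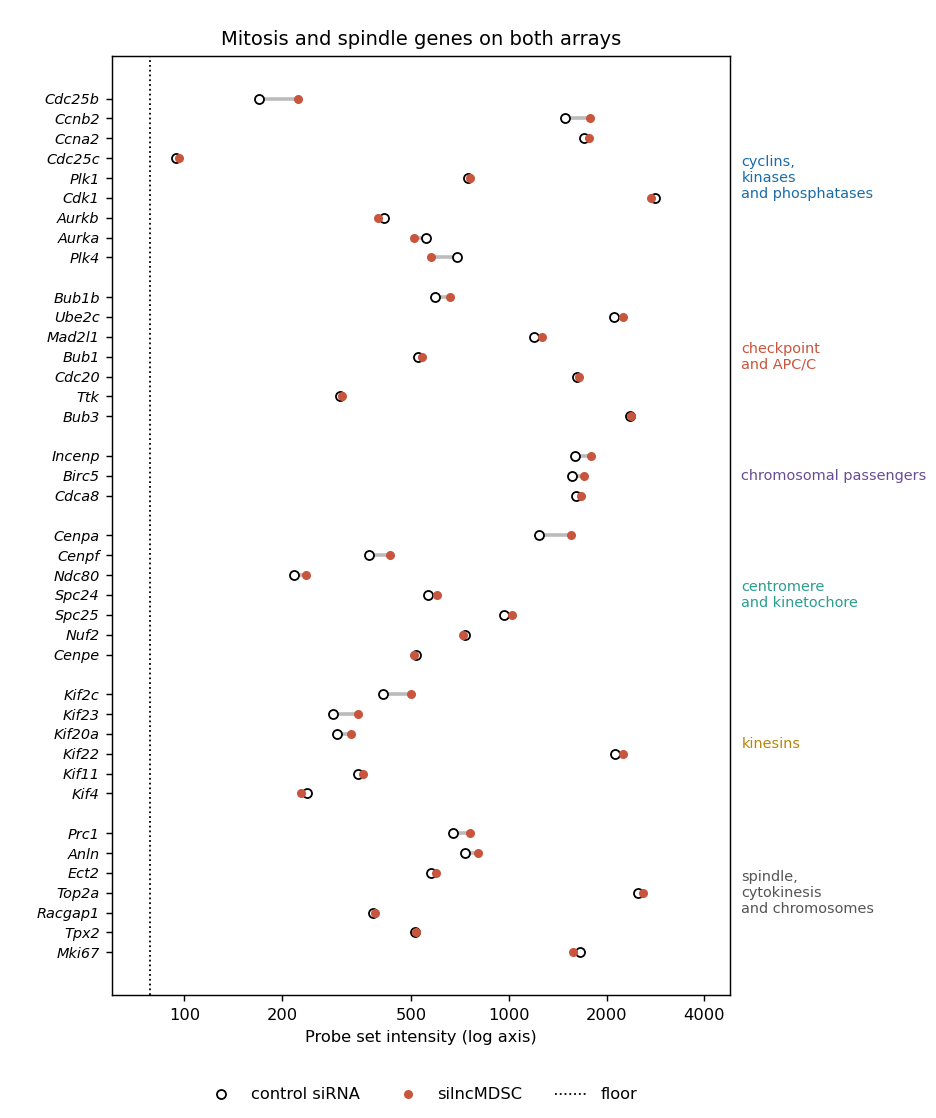
Probe set intensity (x axis, log scale) of each of the 39 mitosis and spindle genes (rows, by role) in the control siRNA culture (open circles) and the silncMDSC culture (red circles), 1 array each. Every gene lies right of the floor of 78.4 (dotted line), and most pairs nearly coincide, with the widest steps at Cdc25b, Cenpa, Kif2c and Plk4.

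Each value is 1 probe set on 1 array, and the other probe sets of the same genes give the only measure of error. They read the same RNA, so they show probe error and not the spread between cultures. For 10 of the 39 genes the brightest probe set can cross-hybridise. Without such probe sets, Kif2c (0.03) and Kif22 (0.34) moved by more than the robust SD of all genes. Plk4 was then at -0.14, and the median over the 38 genes left was 0.06. Of 85 probe sets annotated to the 39 genes, 68 reached the floor, 52 of them above 0 and 16 below. The 29 that were not the brightest of their gene covered 19 genes and differed from the brightest by a median of 0.10 and at most 0.32, for Cenpa. The sign was the same for 23 and the opposite for 6. The gap was within 0.1 for 15 of the 29, and its root mean square was 0.14. A difference of about 0.1 was therefore the size of a typical gap between probe sets of one gene. Differences up to 0.32 lay within the range of these gaps.

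The promoters of these genes share letters known from late cell cycle genes, so the choice of mitosis genes made a high share likely. Many late cell cycle genes carry a cell cycle genes homology region (CHR), the element bound by the MuvB complexes that silence them in resting cells and, with B-Myb and FoxM1, turn them on in G2, and a CCAAT box bound by NF-Y. RefSeq promoter windows (GRCm38.p6, 250 bases before to 50 after the annotated start) matched 33 of the 40 genes. Ccna2, Cdc25c, Aurkb, Incenp, Spc24, Kif20a and Tpx2 had no entry. Windows were searched on both strands for the CHR letters TTTGAA or TTCGAA, for CCAAT, and for the E2F letters TTTGGCGC or TTTCGCGC. A CHR match was present in 27 of 33 genes (81.8%), against 21.7% of all 27025 genes with a window and 16.5% of the 9640 that reached the floor here. CCAAT was present in 26 of 33 (78.8%), against 41.1% of all genes, and both were present in 24 (72.7%), against 8.61%. The motifs were not particular to these genes. Among 60 other mitosis genes with a window, from a list described below, CHR matched 37 (61.7%), CCAAT 40 (66.7%) and both 27 (45%). The E2F letters were found in 1 of 33 (3.03%), Cdk1, against 0.929% of all genes and 1.82% of those that reached the floor. In 25 genes a CHR match began within 50 bases of the start. The share of all genes with a match at that position is not given here. Matches of different motifs overlapped in 1 place, in Cdca8.

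The 4 windows below belong to the genes with a CHR match that were farthest from control, in the order of their difference, and Plk4, the gene farthest below control, was added after its value was seen. Each shows 120 bases before and 30 after the annotated start, 5′ to 3′ on the strand of the gene, with CHR and CCAAT letters on either strand in capitals. Cdc25b lies at chr2:131186828-131186977 (+), Cenpa at chr5:30666766-30666915 (+), Kif2c at chr4:117178743-117178892 (-), Kif23 at chr9:61946770-61946919 (-) and Plk4 at chr3:40799831-40799980 (+).
Cdc25b: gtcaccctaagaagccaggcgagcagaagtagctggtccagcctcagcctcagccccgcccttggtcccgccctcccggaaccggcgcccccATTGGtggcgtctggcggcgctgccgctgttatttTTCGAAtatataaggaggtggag
Cenpa: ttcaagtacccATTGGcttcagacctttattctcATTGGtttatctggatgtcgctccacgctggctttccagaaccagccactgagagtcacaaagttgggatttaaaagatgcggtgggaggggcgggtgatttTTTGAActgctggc
Kif2c: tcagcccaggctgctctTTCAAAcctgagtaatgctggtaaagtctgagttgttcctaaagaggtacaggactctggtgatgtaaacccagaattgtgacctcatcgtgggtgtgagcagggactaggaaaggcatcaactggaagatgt
Kif23: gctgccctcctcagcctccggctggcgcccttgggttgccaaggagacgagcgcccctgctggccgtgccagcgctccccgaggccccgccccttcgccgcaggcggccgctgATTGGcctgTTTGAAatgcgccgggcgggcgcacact
Plk4: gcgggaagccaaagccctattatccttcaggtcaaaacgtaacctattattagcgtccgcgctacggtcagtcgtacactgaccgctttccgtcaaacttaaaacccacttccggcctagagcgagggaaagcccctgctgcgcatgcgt
The CHR letters began at base 8 after the start in Cdc25b, at base 17 in Cenpa and at base 3 in Kif23, each with CCAAT, on the opposite strand as ATTGG, upstream. In Kif2c the match began at base -103 with no CCAAT in the window, and Plk4 had neither. The 27 genes with a CHR match had a median difference of 0.06 (range -0.13 to 0.40), and the 5 measured genes without one a median of -0.02 (range -0.27 to 0.12). For CCAAT the order was the reverse, with a median of 0.05 over 25 genes with a match and 0.12 over 7 without. The groups without a match are small. A match is a description of letters and does not show binding.

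**Figure D2:**
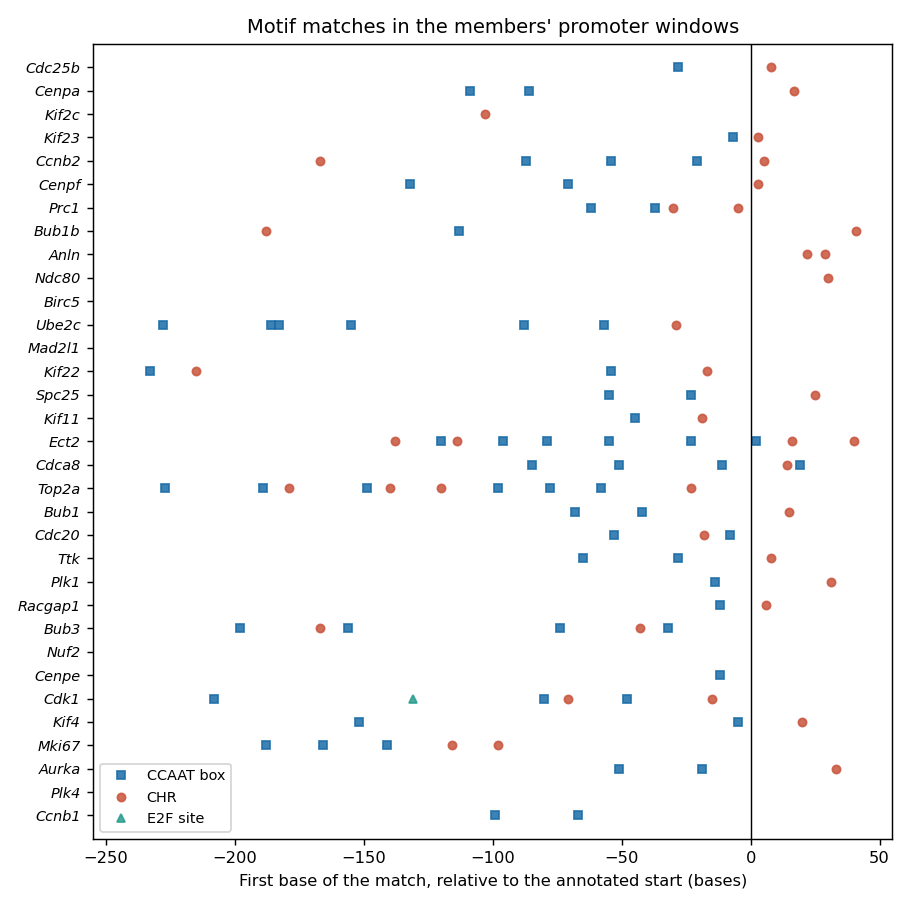
First base of each match to the CHR (red circles), CCAAT (blue squares) and E2F (green triangle) letters, relative to the annotated start (x axis, bases; line at the start), in the promoter windows of 33 mitosis and spindle genes, ordered from the highest difference at the top to Plk4, with the unmeasured Ccnb1 last. Genes with 2 annotated starts show the matches of both windows. In 25 genes a CHR match begins within 50 bases of the start, and in 19 a CCAAT box begins 30 to 120 bases before it. The shares of all genes with matches at these positions are not given here.

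Cyclins, mitotic kinases and their phosphatases were split, with 5 of 9 above 0 and a median of 0.02. Cdc25b, a phosphatase that starts to activate Cdk1 at the centrosome, was the farthest up of all 39 genes, at 170 in the control array and 224 in the silncMDSC array, 1.32-fold higher. It has 1 probe set and no second reading. Cdc25c, its relative that acts at mitotic entry, was near the floor and level (94.1 and 96.4). The B-type cyclin Ccnb2 had 1490 in control and 1782 in silncMDSC (0.26), also from 1 probe set. Its partner Cdk1, the kinase that drives mitosis, was level at 2808 and 2732 (-0.04). Cyclin A2 (Ccna2) was uncertain in sign, since one probe set had 1699 and 1768 (0.06) and the other 1521 and 1364 (-0.16). Plk1, the Polo kinase of mitotic entry and spindle assembly, was level (748 and 758). Plk4, which starts the duplication of centrioles, was the farthest down, with 692 in control and 574 in silncMDSC (-0.27), and its other probe sets gave -0.27 and -0.14. Aurka, the Aurora kinase of the spindle poles, differed by -0.13. Aurkb, the Aurora kinase of the passenger complex, gave -0.07 and, on its second probe set, 0.09. The sign of the group's median is not settled, since it was -0.01 without Cdc25b, and also with the floor at the 75th percentile, which leaves out Cdc25c.

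The spindle checkpoint genes and the APC/C were nearly level, all 7 above 0 by small amounts (median 0.04). Bub1b, which encodes the checkpoint protein BubR1, had 590 in control and 659 in silncMDSC (0.16), and its other 2 probe sets gave 0.12 and 0.18. The kinases Bub1 (0.04) and Ttk (0.02), which start checkpoint signalling at the kinetochore, and Mad2l1 (0.08), the Mad2 protein that binds and blocks Cdc20, differed by less than 0.1. Bub3, the adaptor that brings Bub1 and BubR1 to the kinetochore, had 2367 and 2374 (0.004), with -0.09 and -0.07 on its other probe sets above the floor, so no direction can be given. Cdc20, the APC/C activator that the checkpoint restrains, had 1617 and 1645 (0.03). Ube2c, the ubiquitin-conjugating enzyme of the APC/C, had 2114 and 2243 (0.09).

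The chromosomal passenger complex, which corrects wrong attachments and later moves to the midzone, had its 3 non-kinase subunits above control. The scaffold Incenp had 1593 in control and 1793 in silncMDSC (0.17), and its 3 other probe sets above the floor gave 0.06 to 0.38. Birc5 (survivin) had 1568 and 1701 (0.12), and Cdca8 (borealin) 1612 and 1668 (0.05), with 0.07 and 0.08 on its other probe sets. Their kinase Aurkb did not share this direction on its brightest probe set.

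Among centromere and kinetochore genes, 5 of 7 were above 0, with a median of 0.09. Cenpa, the histone H3 variant that marks centromeres, had 1236 and 1550, 1.25-fold higher in silncMDSC, and was the second farthest up of the 39. Its dimmer probe set had 190 and 299 (0.65), the one reading among the 68 that passed 1.5-fold. Cenpf, a large outer kinetochore protein, differed by 0.21, but by 0.007 and 0.07 on its other probe sets. The Ndc80 complex, the rod that grips microtubules, was not all on one side of 0, with Ndc80 at 0.12, Spc24 at 0.09, Spc25 at 0.08 and Nuf2 at -0.02. Cenpe, a kinetochore-bound kinesin, was level (518 and 510). The signs of Nuf2 and Cenpe turned positive with a loess trend on level removed or a further quantile normalization.

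Of the 6 kinesins, 5 were above 0, with a median of 0.11. Kif2c, the microtubule-depolymerising kinesin MCAK, had 410 in control and 498 in silncMDSC (0.28) on a probe set that can cross-hybridise, and 102 and 104 (0.03) on its only other one above the floor. Kif23, the motor subunit of centralspindlin, which organises the midzone, had 287 and 344 (0.26), with no other probe set above the floor. Kif20a, which carries the passenger complex to the midzone, had 296 and 326 (0.14). Kif22, which pushes chromosome arms to the spindle equator, had 2127 and 2249 (0.08), and its dimmer probe sets gave 0.20 and 0.34. Kif11 (Eg5), the motor that separates spindle poles, was uncertain in sign at 0.06, with -0.03 and -0.09 on its other probe sets. Kif4, a chromosome-bound kinesin, had 239 and 228 (-0.06).

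The remaining genes, of spindle assembly, cytokinesis and chromosome structure, had 6 of 7 above 0 and a median of 0.05. Prc1, which bundles midzone microtubules, had 671 in control and 757 in silncMDSC (0.17), and 0.25 on its second probe set. Anln (anillin), a scaffold of the contractile ring, had 733 and 805 (0.13). Racgap1, the other subunit of centralspindlin, had 382 and 386 (0.02) on one probe set and 321 and 375 (0.22) on another, so it is unclear whether it followed Kif23. Ect2, which activates RhoA for furrowing, differed by 0.05. Tpx2, which activates Aurora A on the spindle, was level on both probe sets above the floor (0.01 each). Top2a, the topoisomerase that untangles sister chromatids, had 2503 and 2588 (0.05). Mki67, which encodes the proliferation marker Ki-67, had 1657 and 1571 (-0.08).

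**Figure D3:**
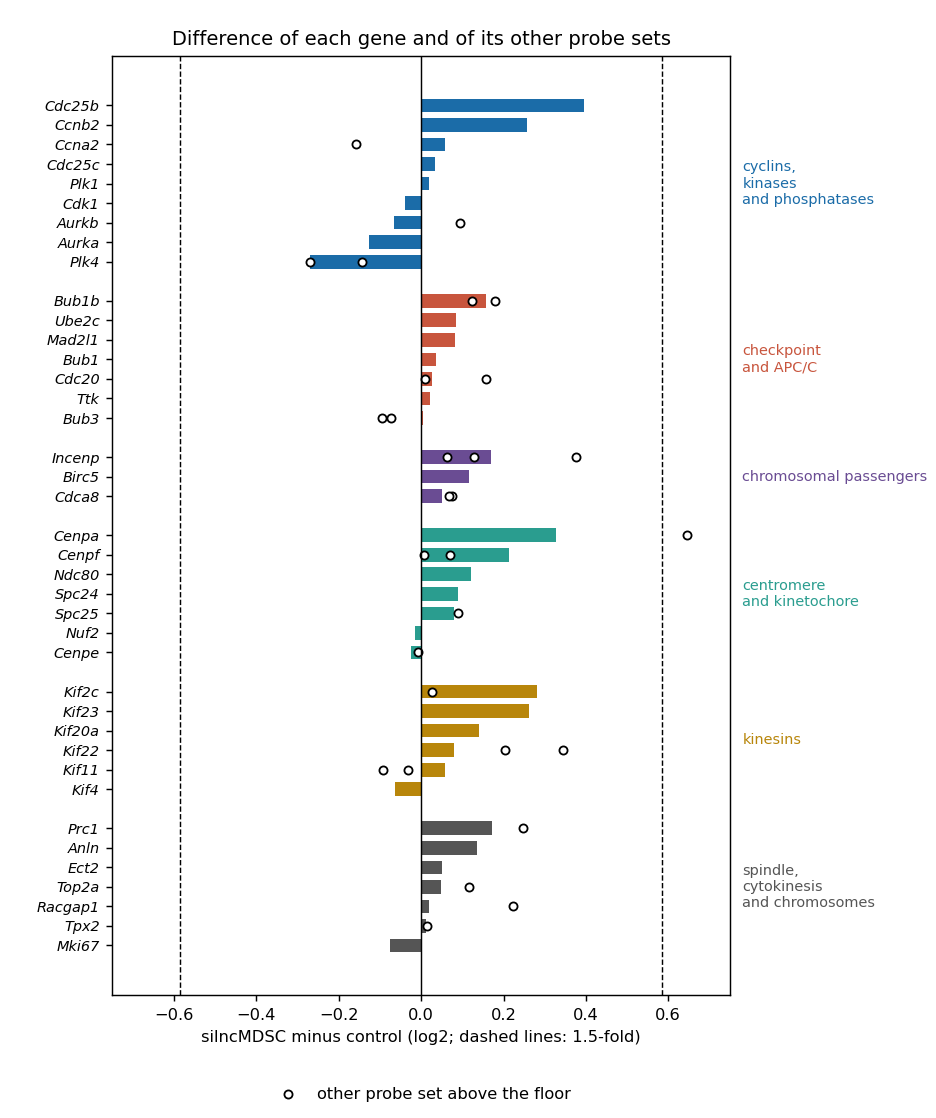
Each bar is the difference of silncMDSC from control (log2, x axis) for the brightest probe set of each mitosis and spindle gene (rows, coloured by role), and open circles show its other probe sets above the floor. All bars lie between the dashed lines at 1.5-fold, from -0.27 for Plk4 to 0.40 for Cdc25b, and 1 open circle, of Cenpa, passes them at 0.65.

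Other mitosis genes, taken from a list of 75, were centred nearer to 0 than the 39. Of 70 that reached the floor, 0 passed 1.5-fold in either direction, 39 were above 0 and 31 below, and the median was 0.04. The split was 48 to 22 with the loess trend removed and 49 to 21 after a further quantile normalization. The farthest were Mis12, a kinetochore subunit (-0.35), the spindle protein Nusap1 (0.29), Cdca2 (0.28) and the condensin subunit Ncapd2 (0.28). Genes of DNA replication, which comes before mitosis, lay mostly on the other side of 0. Of 40 above the floor, 30 were below 0, beside 50.7% of all genes, 10 above and 0 past 1.5-fold. Tk1 and Pold1 (0.20 each) were the farthest above. The median of -0.11 stayed between -0.11 and -0.07 over 8 other settings. Its size is near the median gap of 0.10 between probe sets of one gene and within the robust SD of all genes, 0.18. Cdc6, which loads the replicative helicase, had 342 in control and 279 in silncMDSC (-0.29), and Orc1 (-0.26), the flap nuclease Fen1 (-0.24) and the helicase subunit Mcm2 (-0.23) followed. A CHR match was present in 6 of 34 replication genes with a window (17.6%), and CCAAT in 22 (64.7%), against 41.1% of all genes. The E2F letters were present in 13 (38.2%), against 0.929% of all genes. No test of the gap between the mitosis and the replication genes was possible with 1 array per group.

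The regulators of the cycle were split by kind, with transcriptional regulators on both sides of 0 and inhibitors mostly above it. Among 13 genes of the complexes that control mitotic transcription, 6 were above 0 and 7 below (median -0.001), with 0 past 1.5-fold. Mybl2 (B-Myb) was 146 in control and 116 in silncMDSC (-0.32), Lin37 differed by 0.32, Nfyc by -0.23 and Rbl2 (p130) by 0.22. Among 8 cell cycle inhibitors and related genes above the floor, 7 were above 0, beside 49.3% of all genes, and 1 was at least 1.5-fold higher, beside 0.948%, with a median of 0.26. With no floor, 7 of 11 were above 0 and the median was 0.06. Ccng2, a cyclin of cells leaving the cycle, had 834 in control and 1263 in silncMDSC (0.60). The CDK inhibitors Cdkn2c (p18) and Cdkn1b (p27) had 432 and 596 (0.46) and 1222 and 1607 (0.39), and Btg2 differed by 0.27. With probe sets averaged within a gene, 0 of these 8 passed 1.5-fold, and with the second brightest probe set the median over 6 was 0.05.

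**Figure D4:**
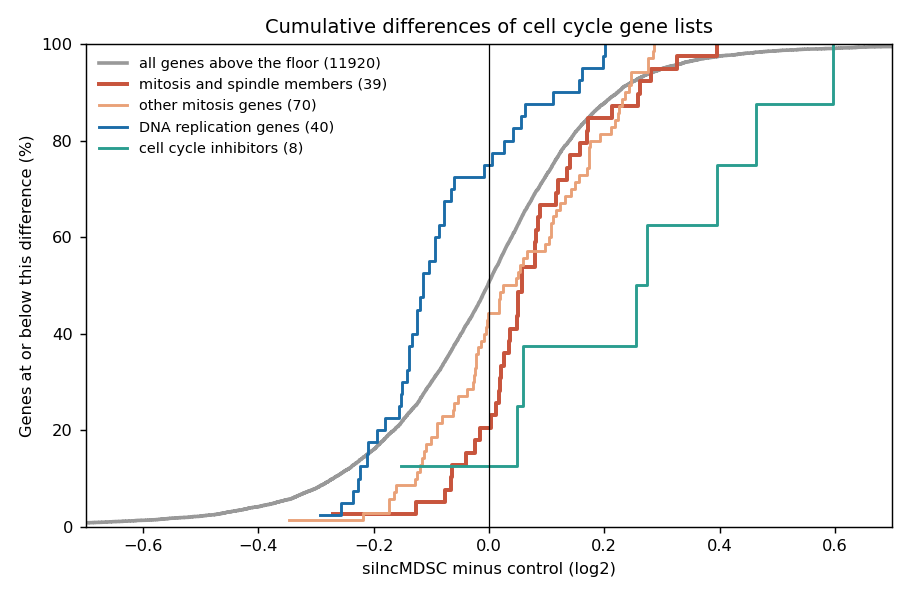
Cumulative share of genes (y axis, %) at or below each silncMDSC minus control difference (x axis, log2) for all 11920 genes above the floor (grey), the 39 mitosis and spindle genes (red), 70 other mitosis genes (orange), 40 DNA replication genes (blue) and 8 cell cycle inhibitors (green). At 0 the curve of the mitosis and spindle genes has reached 8 of 39 genes, that of replication genes 30 of 40 and that of all genes 50.7%.

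Marker genes of the cells that the cultures could hold did not all follow the same direction. General myeloid genes, which do not by themselves identify MDSCs, were present on both arrays, with 8 of 9 listed genes measured and all 8 above the floor. Of the 8, 6 were below 0 and 2 above, beside 50.7% of all genes below 0, with a median of -0.04. Among them, Itgam (CD11b) had 2144 in control and 2040 in silncMDSC. Ccr2, the farthest from 0, had 845 in control and 1069 in silncMDSC (0.34). Ly6g was not analysed here. Genes of dividing granulocyte precursors were below control in 6 of 6 measured, beside 50.7% of all genes. The median was -0.22 and the summed intensity 23748 in control and 20022 in silncMDSC. Genes of later neutrophil stages had 4 of 6 below 0 and sums of 19839 and 18963. The sums came mostly from the granule genes Camp, Mmp8 and Ltf (6060, 5880 and 5408 in control). These are not confined to mature, non-dividing neutrophils, so the sums do not measure such cells. Those farthest from 0 were above it, Cxcr2 (0.44) and Padi4 (0.32). The 4 below, Mmp9, Ltf, Mmp8 and Camp, lay between -0.19 and -0.08. Macrophage genes had 4 of 8 at least 1.5-fold lower, beside 1.42% of all genes, with sums of 11766 and 9266. The macrophage surface marker Adgre1 was level at 3070 and 3068, and the count of the 8 below 0 was 8, 7 with the arrays centred and 6 with the loess trend removed. Stem and progenitor genes had 4 of 7 above 0, near the 49.3% of all genes, and sums of 3526 and 3471. Of the 7, 1 was at least 1.5-fold lower (Sox4, -0.64), beside 1.42% of all genes. With probe sets averaged within a gene, 0 of 6 were 1.5-fold lower. The median of the 7 was 0.14, and -0.19 over the 3 genes with a second probe set above the floor. Of 7 erythroblast genes measured, Klf1, Hba-a1, Alas2 and Slc4a1 did not reach the floor, whereas Tfrc (-0.30), Gata1 (0.29) and Epor (0.04) did. T and NK cell genes were above control in all 4 that reached the floor, beside 49.3% of all genes. With probe sets averaged within a gene, 3 of the 4 were above 0. Klrd1 (281 and 528, 0.91) was the 1 gene at least 1.5-fold higher, beside 0.948% of all genes. Cd3d, near the floor (72.3 and 82.6), differed by 0.19, Cd3e by 0.12 and Cd8a by 0.05. The 6 measured summed to 805 and 1097, a rise mostly from Klrd1. B lineage genes had 2 of 4 above 0, and the 6 measured summed to 909 and 937. Over the same arrays the 39 mitosis and spindle genes summed to 37493 in control and 39323 in silncMDSC. Whether the makeup of the cultures contributed to these differences was not tested.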

How the data were processed

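The intensity values deposited by the authors were used, 1 column per array and 1 row per probe set. The submitters' processing notes name RMA, with no version. The values were linear, from 1 to 13983, so some step beyond the log2 output of RMA, not given in the sources used here, was made before deposit. The limma test of the study's methods needs replicates and could not be fitted to 1 array per group. Without the 64 control probe sets there were 45037, of which 34945 had 1 gene symbol, 932 several and 9160 none in the platform annotation. A gene was read from its single-symbol probe set with the highest mean, and its RefSeq symbol (GRCm38.p6) was checked through the Entrez identifier, where 39 of 39 matched. No probe set with several symbols held a mitosis and spindle gene. The difference was taken with a pseudocount of 1. The floor kept a gene whose higher value reached 78.4. The threshold was 1.5-fold. Medians and counts over a list stand beside those of all genes, without a set test. The genes, their roles, the lists and the motifs were chosen with earlier results of these data known. All mitosis and spindle genes are named, and of each pathway list the 4 farthest from 0 and any past 1.5-fold. The procedure was tested on simulated data. Python 3.11.15, pandas 2.3.3, scipy 1.17.1 and statsmodels 0.14.6 were used. In all, 13 alternatives were run, each on the results it could bear on (at most 12 for a result on the mitosis and spindle genes, 8 for the other lists): centring, loess trend removed (span 0.3), quantile normalization, pseudocount 16, no floor, the floor raised to percentile 75 or applied to the mean, the mean of probe sets, the second brightest probe set, no probe sets ending in _x_at or _s_at, probe sets of several symbols, a 2-fold threshold, and without the farthest gene.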

Additional observations from a re-analysis of the deposited data

How the results depend on the processing

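The count of mitosis and spindle genes at least 1.5-fold lower stayed at 0 under every alternative run, and the median over all of them ran from 0.05 to 0.09. The second brightest probe set, which exists above the floor for only 19 genes, changed most. With it 1 gene, Cenpa, passed 1.5-fold upwards, 5 were below 0, and the medians were -0.14 for cyclins, kinases and phosphatases and 0.17 for spindle, cytokinesis and chromosome genes. The median of the cyclin and kinase group also turned negative with the floor at the 75th percentile and without Cdc25b. Of 407 recomputed differences of single genes, 7 moved by more than the robust SD of all genes (Ccna2, Cenpa, Cenpf, Kif22 and Racgap1 once each, Kif2c 2 times), and 8 of 39 genes changed sign under at least 1 alternative, none of which had differed by more than 0.13. The number of arrays limits the precision. No paired analysis was possible because each group had 1 array.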
